A study of Homo sapiens with 13 samples.

Results

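The glucocorticoid receptor gene NR3C1 and 5 genes that glucocorticoids are known to induce, TSC22D3, PER1, SGK1, KLF9 and ZBTB16, were followed through 13 RNA sequencing libraries of LNCaP-abl cells. LNCaP-abl was derived from the prostate cancer line LNCaP and grows without androgen. The 6 genes were taken by symbol from 22613 gene entries per library, and all 6 were among the 15780 genes kept after a filter on low values (a mean of at least 0.5 FPKM, a level corrected for transcript length and for the number of mapped fragments). The rule takes them by symbol, but the members were chosen by earlier results on their FPKM values in these same libraries, so their levels and differences are given as a description, with no test.

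Every library came from the same line, cultured without phenol red and with charcoal-stripped serum, a serum depleted of steroids. The labels name no added glucocorticoid. Cells were transfected with an siRNA pool for 72 h: 1 library received control siRNA (siControl), and 1 library each received a pool against a forkhead factor (FOXA1, FOXM1), a Polycomb subunit (EZH2, EED), an architectural factor (CTCF, RAD21), a chromatin enzyme (KDM1A, SMARCA4), a repair protein (BRCA1, BRCA2) or a noncoding RNA (MALAT1, PCAT1). All 12 knockdowns were therefore compared with a single control library. With 1 library per group there is no replicate error, so whether neighbours in any order of levels differ beyond their spread cannot be said. Read depth is unknown, since only FPKM-based values were used. The deposited values had nearly the same distribution in every library. Levels and ratios given in FPKM are therefore on that shared scale and may differ from FPKM as first estimated. RNA was taken from whole cultures, so fewer cells of one kind and less RNA per cell cannot be told apart.

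The glucocorticoid receptor is a nuclear receptor that waits in the cytoplasm with HSP90 and its partner proteins. On binding cortisol it enters the nucleus and binds DNA, where it raises genes such as those above and restrains inflammatory genes. In prostate cancer it is known as a receptor that can take over part of the androgen-induced gene programme when androgen signalling is blocked.

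Of the 11 siRNA targets checked, 8 were lowest in their own library. The level of PCAT1 was not analysed here. Among the 8, EED was at 4.13 FPKM in siEED and 8.94 in the control (-0.95), short of the 2-fold call used below. BRCA1 in its library ranked 3 from the lowest of the 13, and BRCA2 in its library ranked 9. BRCA2 was at 1.23 FPKM in siBRCA2 and 3.25 in the control (-0.93), but 8 other libraries were lower still, so its level does not tell that library from other knockdowns. MALAT1, a nuclear noncoding RNA, had a level of 21.7 FPKM in its own library (labelled siMALAT1) against 16.4 in the control, the wrong direction for a knockdown, so that library is called by its label throughout. The luminal prostate markers KLK3, HOXB13, FOLH1, KRT8 and KRT18 were all listed and summed to 715 FPKM in the control and to between 577 and 1001 in the knockdowns. KLK3, which encodes prostate-specific antigen, was close to 0 throughout, at 0.0165 to 0.524 FPKM. Of the other cell type markers, 1 of 3 basal markers was listed (at most 0.830 FPKM), 2 of 4 stromal markers summed to at most 3.77 FPKM, and 2 of 3 leukocyte markers summed to between 4.85 and 12.2 FPKM.

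NR3C1 was present at a low level and divided the libraries into a high and a low set. It was at 5.999 FPKM in the control, 7.11 in the library labelled siMALAT1 and 5.09 in siPCAT1. In the other 10 knockdowns it was at 2.51 FPKM in siKDM1A, 2.47 in siBRCA1, 1.82 in siRAD21, 1.78 in siSMARCA4, 1.65 in siEZH2, 1.51 in siEED, 1.45 in siFOXM1, 1.43 in siBRCA2, 1.16 in siCTCF and 0.889 in siFOXA1. The control thus stood near the top of the order and 11 of the 12 knockdowns were below it. The highest library held 7.99 times the FPKM of the lowest.

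**Figure D1:**
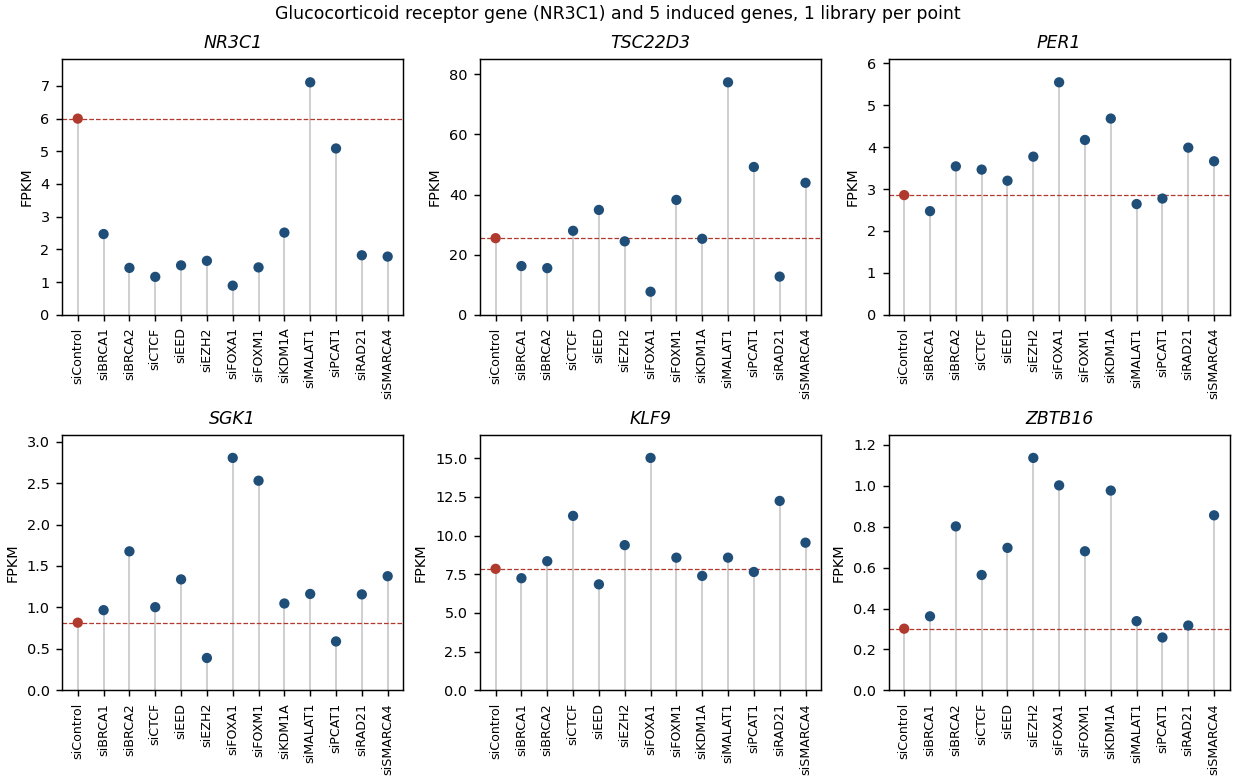
Level in FPKM (vertical axes, each from 0) of NR3C1 and the 5 induced genes in the 13 libraries (horizontal axes), 1 point per library, with the control in red and its level as a dashed line. NR3C1 is at 5.09 to 7.11 FPKM in 3 libraries and at 0.889 to 2.51 in the other 10, whereas PER1, SGK1 and ZBTB16 lie above the control in most knockdowns.

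On the log2(FPKM + 1) scale, where a difference of at least 1 is called 2-fold here, NR3C1 was 2-fold lower in 9 of the 12 knockdowns. The largest difference was in siFOXA1, at -1.89, where 4.22% of all genes kept were 2-fold lower. It was -1.70 in siCTCF, beside 2.85% of all genes, and -1.52 in siBRCA2, beside 0.76%. FOXA1 is a pioneer factor of luminal prostate cells, CTCF an architectural DNA-binding protein, and BRCA2 a homologous recombination protein. The difference was -1.52 in siFOXM1 (3.6% of all genes 2-fold lower), -1.48 in siEED (0.741%) and -1.40 in siEZH2 (3.09%). EED and EZH2 are subunits of the same Polycomb complex, and FOXM1 is a forkhead factor of dividing cells. In siSMARCA4 it was -1.33 (1.97% of all genes), in siRAD21 -1.31 (1.88%) and in siBRCA1 -1.01 (0.944%). The siKDM1A library missed the 2-fold threshold at -0.99, where 1.55% of all genes passed it. The remaining libraries gave -0.20 in siPCAT1, where 1.33% of genes were 2-fold lower, and 0.21 in the library labelled siMALAT1, where 1.57% were.

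These 9 differences share the control library, but the control was not the only high one. With siPCAT1 as the reference, NR3C1 was 2-fold lower in 8 of the 10 other knockdowns, from -0.79 in siKDM1A to -1.69 in siFOXA1, with siBRCA1 (-0.81) also short of the threshold. With the library labelled siMALAT1 as the reference it was 2-fold lower in all 10, from -1.21 in siKDM1A to -2.10 in siFOXA1. Both libraries were taken as references after their high NR3C1 had been seen, so these values describe the gap between the sets. When each knockdown was compared with the 11 other knockdowns through their median, leaving the control out, NR3C1 was 2-fold lower in none; most of those 11 libraries belong to the low set, so this follows from how the reference is built. Against that median it was at -0.56 in siFOXA1, -0.36 in siCTCF, -0.19 in siBRCA2, -0.18 in siFOXM1, -0.15 in siEED and -0.069 in siEZH2. The sign turned in siBRCA1 (0.39), siRAD21 (0.090) and siSMARCA4 (0.069). The library labelled siMALAT1 (1.61) and siPCAT1 (1.20) were then 2-fold higher, and siKDM1A was at 0.41.

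**Figure D2:**
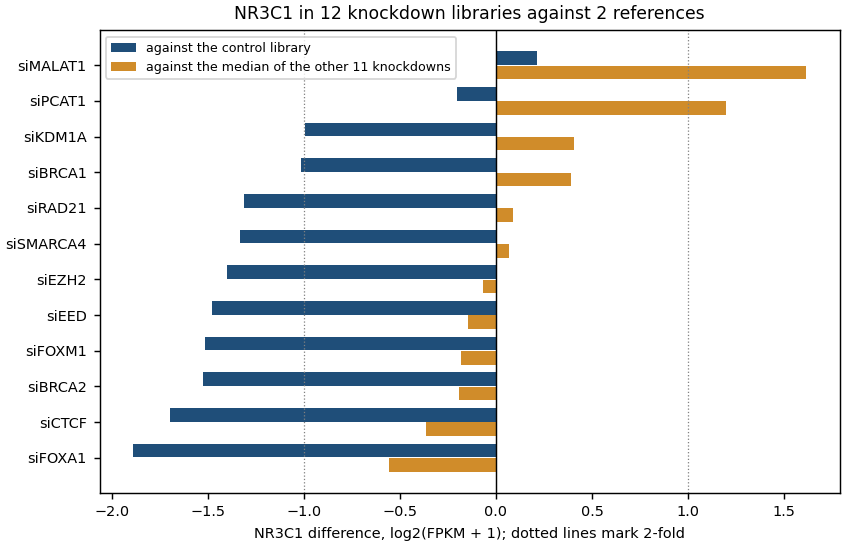
NR3C1 difference on the log2(FPKM + 1) scale (horizontal axis) in each knockdown library (vertical axis), against the control library (blue bars) and against the median of the other 11 knockdowns (orange bars), with dotted lines at 2-fold. Of the blue bars 9 pass the lower line, none of the orange bars does, and the orange bars of siPCAT1 and the library labelled siMALAT1 pass the upper line.

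Few genes were low in as many knockdowns: 85 genes, or 0.539% of those kept, were 2-fold lower in 9 or more. The step from siPCAT1, the third highest library, down to siKDM1A, the fourth, was 0.79 on the log2 scale. A step at least this large below the third highest library, whichever libraries those were, was found in 10 genes, or 0.0634% of those kept. NR3C1 was chosen with its values in view and the step was taken from them. The shares of 0.539% and 0.0634% therefore describe the gene and are no test of it. The control, the library labelled siMALAT1 and siPCAT1 were the 3 highest libraries for 164 genes, and NR3C1 had the largest step of these, the next being 0.54. Those 3 libraries were read off NR3C1's own values, so this count describes the gene and gives no support to the grouping. A wide range alone was less unusual: of 4192 genes with a mean level between 0.5 and 2 times that of NR3C1, 225 had a log2 range at least as large as its 2.10.

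NR3C1 has 7 promoter windows in the RefSeq table used, each from 250 bases before to 50 after an annotated start. The table is on GRCh38.p14, another build than the hg19 of the expression values, and it was used for sequence only. The windows were searched on both strands for ACANNNTGT, the core of the palindromic receptor response element, for its half-site AGAACA, and for TGTTTAC, a motif of forkhead factors, the family of FOXA1 and FOXM1. Of 35116 windows of this length, 5.37% held the core, 14.8% the half-site and 3.42% the forkhead motif. One NR3C1 window held the forkhead motif, and none held the core or the half-site. The site is shown because siFOXA1 was the lowest library for NR3C1. It lies at chr5:143403326-143403352 on the minus strand, its motif (in capitals) beginning 59 bases before the start at 143403283, in sequence that is also annotated as untranslated region of other transcripts.
NR3C1: aaggggcggcTGTTTACttcctttttt
A match of letters is a description and shows nothing about binding in these cells.

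TSC22D3, also called GILZ, encodes a leucine zipper protein that carries out part of the anti-inflammatory action of glucocorticoids. It was the most abundant and the most variable of the 5 induced genes. TSC22D3 was at 25.5 FPKM in the control, 77.4 in the library labelled siMALAT1, 49.2 in siPCAT1, 43.9 in siSMARCA4, 38.2 in siFOXM1, 34.9 in siEED, 27.9 in siCTCF, 25.3 in siKDM1A, 24.4 in siEZH2, 16.2 in siBRCA1, 15.5 in siBRCA2, 12.7 in siRAD21 and 7.66 in siFOXA1. The highest library held 10.1 times the FPKM of the lowest, and 6 knockdowns lay above the control and 6 below. The difference from the control was 1.56 in the library labelled siMALAT1, where 0.387% of all genes were 2-fold higher, and -1.61 in siFOXA1. No other knockdown passed 2-fold; siRAD21 (-0.95) and siPCAT1 (0.92) came closest.

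TSC22D3 has 4 promoter windows, and they held the receptor core and the forkhead motif at separate starts. A single copy of the core, at chrX:107775977-107776005 on the minus strand, fell in both upstream windows. It began 208 bases before the start at 107775787 and 7 bases before the start at 107775988. The stretch shown around the core runs past the start at 107775988 and overlaps annotated untranslated region. The forkhead motif began 147 bases before the start at 107717062, and the stretch shown around it, chrX:107717136-107717312 on the minus strand, overlaps no annotated untranslated region. Both are printed because this was the member with the widest range, with capitals marking the motif.
TSC22D3 core: agggtaatttACATGCTGTcatatcccag
TSC22D3 forkhead: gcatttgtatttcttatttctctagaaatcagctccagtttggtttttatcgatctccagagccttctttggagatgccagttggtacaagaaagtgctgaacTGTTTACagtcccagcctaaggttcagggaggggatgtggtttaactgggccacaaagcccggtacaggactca
The deposited values are per gene and do not separate these starts, so which promoter was in use was not tested.

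PER1, a repressor in the circadian clock that glucocorticoids induce quickly, varied little. It was at 2.86 FPKM in the control, 5.55 in siFOXA1, 4.68 in siKDM1A, 4.17 in siFOXM1, 3.99 in siRAD21, 3.78 in siEZH2, 3.66 in siSMARCA4, 3.54 in siBRCA2, 3.47 in siCTCF, 3.20 in siEED, 2.77 in siPCAT1, 2.64 in the library labelled siMALAT1 and 2.47 in siBRCA1. Thus 9 knockdowns were above the control and 3 below, and none reached 2-fold. The difference in siFOXA1 was 0.76. Its 1 promoter window held none of the 3 motifs.

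SGK1, a serine/threonine kinase that promotes survival and sodium transport, was near 1 FPKM in most libraries. It was at 0.816 FPKM in the control, 2.80 in siFOXA1, 2.53 in siFOXM1, 1.68 in siBRCA2, 1.38 in siSMARCA4, 1.34 in siEED, 1.16 in both siRAD21 and the library labelled siMALAT1, 1.05 in siKDM1A, 1.003 in siCTCF, 0.967 in siBRCA1, 0.590 in siPCAT1 and 0.390 in siEZH2. The 2 forkhead factor knockdowns stood above the rest. The difference was 1.07 in siFOXA1, where 3.52% of all genes were 2-fold higher, and 0.96 in siFOXM1, where 2.59% were. These were the largest such shares of all the knockdowns, so this order is not shown to be particular to SGK1. With a pseudocount of 0.1, both passed 2-fold. Of its 3 promoter windows, 1 held the half-site, in sequence transcribed from the start at 134177861. It began at base 6, counting that start as base 1.
SGK1, chr6:134177841-134177866, minus strand: ggttcataacAGAACAgggatagccg

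KLF9, a Krüppel-like transcription factor, was at 7.85 FPKM in the control, 15.0 in siFOXA1, 12.2 in siRAD21, 11.3 in siCTCF, 9.54 in siSMARCA4, 9.38 in siEZH2, 8.57 in both siFOXM1 and the library labelled siMALAT1, 8.34 in siBRCA2, 7.65 in siPCAT1, 7.39 in siKDM1A, 7.24 in siBRCA1 and 6.84 in siEED. The 3 highest libraries were the knockdowns of FOXA1 and of the partner architectural factors RAD21 and CTCF. How many genes have these same 3 highest was not counted. No difference reached 2-fold, the largest being 0.86 in siFOXA1. Its 1 promoter window held none of the motifs.

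ZBTB16, also called PLZF, a zinc finger repressor that responds to both glucocorticoids and androgens, was the scarcest member. ZBTB16 had a mean of 0.638 FPKM, just over the filter. It was at 0.301 FPKM in the control, 1.14 in siEZH2, 1.002 in siFOXA1, 0.977 in siKDM1A, 0.856 in siSMARCA4, 0.802 in siBRCA2, 0.697 in siEED, 0.680 in siFOXM1, 0.564 in siCTCF, 0.362 in siBRCA1, 0.338 in the library labelled siMALAT1, 0.317 in siRAD21 and 0.258 in siPCAT1. It was above the control in 11 of 12 knockdowns, but on the log2(FPKM + 1) scale none reached 2-fold. The largest difference was 0.72, in siEZH2. With a pseudocount of 0.1 in place of 1, 5 of the 12 were 2-fold higher, so the absence of a call at these low levels depends on the pseudocount. The share over all genes at that pseudocount was not computed.

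Across all 6 genes, 10 of the 72 differences (13.9%) were 2-fold lower and 2 (2.78%) were 2-fold higher. Over all genes kept, 2.04% of the differences in the 12 comparisons were 2-fold lower and 1.098% were 2-fold higher. SGK1 and ZBTB16 were under 1 FPKM in the control and so could not be called lower on this scale. NR3C1 gave 9 of the 10 lower ones and TSC22D3 the other. Without the library labelled siMALAT1, the lower count was still 10 and the higher count was 1. No member had a library that stood 1 log2 unit beyond all others. The siFOXA1 library was at an extreme for 5 of the 6 genes: lowest for NR3C1 and TSC22D3 and highest for PER1, SGK1 and KLF9. Among the knockdowns, siFOXA1 also had the largest shares of all genes 2-fold lower (4.22%) and 2-fold higher (3.52%). The share of all genes with siFOXA1 at an extreme was not counted, so the 5 extremes are not shown to be particular to these genes. FOXA1 itself was at 60.6 FPKM in that library and at 137 in the control.

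The levels of the induced genes did not follow that of the receptor's mRNA as a block. Over the 13 libraries, NR3C1 and TSC22D3 had a Pearson's r of 0.57 (Spearman's rho 0.43). The other 4 ran against NR3C1: r was -0.67 for ZBTB16 (rho -0.57), -0.66 for PER1 (-0.53), -0.48 for SGK1 (-0.54) and -0.47 for KLF9 (-0.41). Without siControl and the library labelled siMALAT1, the 2 farthest from the median of NR3C1, r over 11 libraries was 0.47 for TSC22D3, -0.55 for ZBTB16, -0.55 for PER1, -0.60 for SGK1 and -0.56 for KLF9. Without the library labelled siMALAT1 alone, r for TSC22D3 was 0.38, and for the other 4 it lay between -0.64 and -0.54. These correlations describe 13 libraries that share a cell line, a build and the authors' normalization. The 3 high libraries of NR3C1 form a cluster apart from the rest, so a pooled r largely sets those 3 against the other 10. Within these 10 libraries, split off after seeing the values, r with NR3C1 was 0.23 for TSC22D3 (rho 0.12), -0.25 for ZBTB16 (-0.16), -0.42 for PER1 (-0.079), -0.53 for SGK1 (-0.53) and -0.65 for KLF9 (-0.42). For TSC22D3, ZBTB16 and PER1 the pooled values therefore rest on the 3 high libraries to a large extent, and for SGK1 and KLF9 they do so less. Within the 10, siFOXA1 was lowest for NR3C1 and highest for SGK1, KLF9 and PER1, so it weighs in those values. Their r without siFOXA1 was not computed.

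Among the induced genes, PER1 ran with ZBTB16 (r 0.72, rho 0.65), KLF9 (0.62, rho 0.49) and SGK1 (0.56, rho 0.47). TSC22D3 had a negative r with each of the other 4, from -0.53 with KLF9 to -0.27 with ZBTB16. With ZBTB16 the sign was not kept: r was 0.12 and rho -0.0061 within the 10 libraries lowest in NR3C1.

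**Figure D3:**
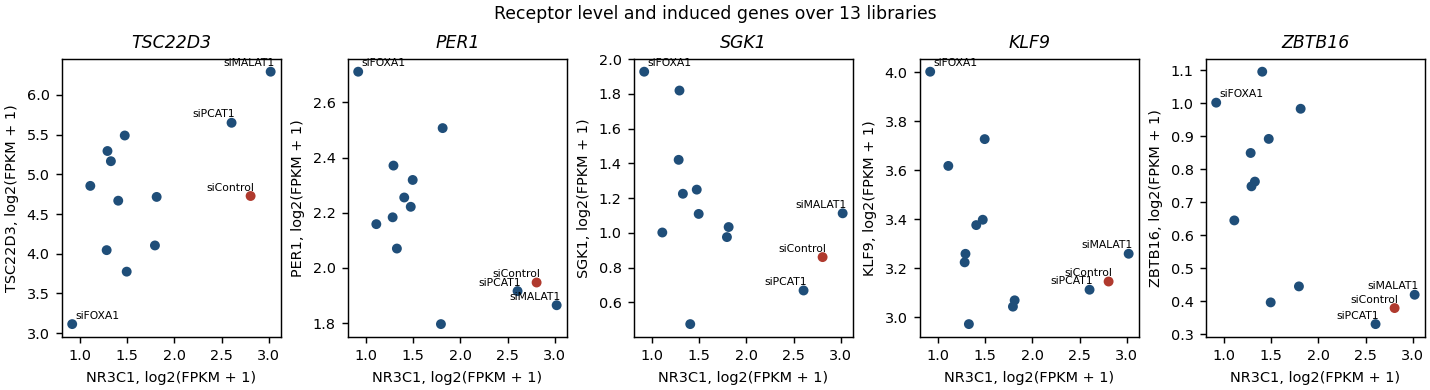
Each of the 5 induced genes (vertical axes) against NR3C1 (horizontal axes), both as log2(FPKM + 1), 1 point per library, with the control in red. The control, siPCAT1 and the library labelled siMALAT1 lie apart at the right; they are among the lower points for PER1 and ZBTB16, whereas TSC22D3 is highest in the library labelled siMALAT1 and lowest in siFOXA1.

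The genes most like NR3C1 over the libraries, among 12002 genes with a mean of at least 1 FPKM, were STK11 (r 0.92, 15.5 to 23.1 FPKM), ZNF138 (0.88, 1.71 to 4.59), ZNF281 (0.87, 5.01 to 15.7), MANEA (0.86, 125 to 255) and DPP4 (0.85, 1.02 to 3.86). STK11 is the LKB1 kinase, ZNF138 and ZNF281 are zinc finger proteins, MANEA is a Golgi mannosidase and DPP4 is a cell surface peptidase. Most like TSC22D3 were NVL (r 0.89), BAMBI (0.89) and MEAF6 (0.88), and most like PER1 were TSPAN7 (0.90), LMTK2 (0.89) and KDM1B (0.89). SGK1 was followed most closely by SYNM (0.92), FAM122A (0.91) and DBI (0.89), and KLF9 by TMEM179B (0.93), GAB1 (0.90) and ATP6V1D (0.90). For ZBTB16 the closest were MOB3A (0.87), C12orf44 (0.85) and PIGG (0.83). Of the 5 members with a mean of at least 1 FPKM, none was among another member's closest genes; ZBTB16, below that mean, could not be. The 3 high libraries of NR3C1 weigh in its list as they do above.

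Of the related steroid receptors, which recognise similar DNA elements, 2 were followed beside NR3C1. PGR, the progesterone receptor, was at 1.495 FPKM in the control and ran from 0.692 in siEED to 4.40 in siFOXA1. PGR was 2-fold higher in siFOXA1 (1.11) and in siRAD21 (4.06 FPKM, 1.02), so the 2 receptor genes NR3C1 and PGR stood at opposite ends in siFOXA1. NR3C2, the mineralocorticoid receptor, which also binds cortisol, stayed between 0.369 and 0.782 FPKM with no 2-fold difference. In FPKM, NR3C1 was above PGR in the control (5.999 against 1.495) and below it in siFOXA1 (0.889 against 4.40), siRAD21 (1.82 against 4.06), siFOXM1 (1.45 against 1.88), siBRCA2 (1.43 against 1.59) and siCTCF (1.16 against 1.31).

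**Figure D4:**
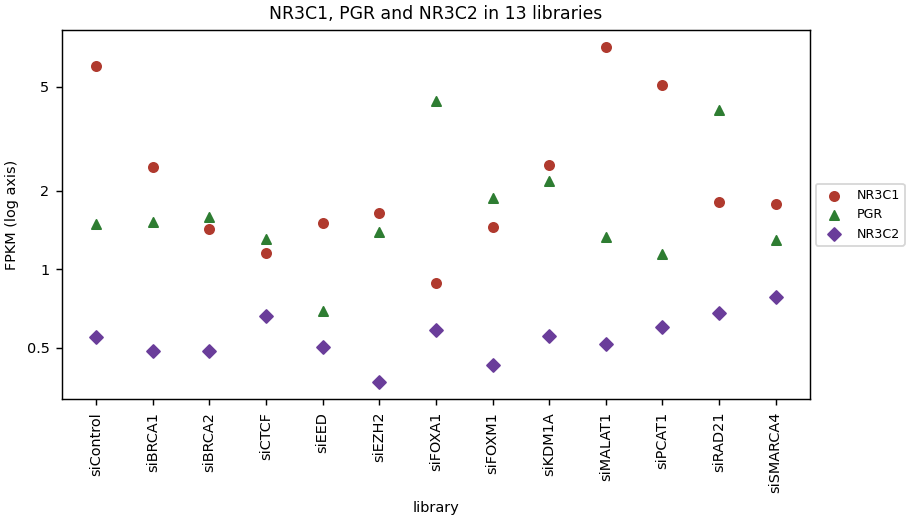
FPKM on a log axis (vertical) of the steroid receptor genes NR3C1, PGR and NR3C2 in the 13 libraries (horizontal), 1 point per gene and library. NR3C2 stays at 0.369 to 0.782 FPKM, and NR3C1 and PGR swap order between the control and siFOXA1.

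The mRNAs of proteins that hold and regulate the receptor held few 2-fold differences, as most genes did. Of 17 chaperone and immunophilin genes kept, none was 2-fold higher in any knockdown and 1 was 2-fold lower in 1 of them. That is 0% and 0.490% of 204 differences, beside 1.098% and 2.04% over all genes, so at this size only a few calls separate the list from the background. That gene was FKBP5, an immunophilin that lowers the receptor's affinity for hormone and is itself induced by glucocorticoids and androgens. FKBP5 was at 4.61 FPKM in siFOXA1 and 16.8 in the control (-1.67), and it lay below the control in 11 of 12 knockdowns, with 18.6 FPKM in siKDM1A the exception. HSP90AA1, the inducible cytosolic HSP90, ran from 478 to 909 FPKM, and FKBP4, the immunophilin that favours nuclear entry of the receptor, from 59.3 to 93.7. Of 22 coactivators and corepressors kept, only SMARCA4, the siRNA target (-2.40), and CBX3, a heterochromatin protein (-1.21), were 2-fold lower, both in siSMARCA4. None was 2-fold higher in the 12 knockdowns, so 0.758% of their 264 differences were 2-fold lower and 0% higher. Of 5 genes of corticosteroid metabolism kept, none of 60 differences reached 2-fold; HSD11B2, which inactivates cortisol, ran from 8.60 FPKM in siRAD21 to 21.9 in siFOXA1.

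A wider list of 53 other genes known to be induced by glucocorticoids had 44 listed and 38 kept. Over the 12 knockdowns it held 27 differences that were 2-fold higher and 1 that was 2-fold lower, of 456, or 5.92% and 0.219% beside 1.098% and 2.04% over all genes. Its median difference ran from 0.0020 in siPCAT1 to 0.46 in siFOXM1, where the median over all genes was 0.019 and 0.022. The siFOXA1 and siFOXM1 libraries held 16 of the 27 higher differences. Many of these genes also answer to stress and NF-κB signalling, so the list is not specific to the receptor. It was chosen with earlier results of these data known, so its shares describe it and are no test. DUSP1 gave 6 of the 27 higher differences, BIRC3 3 and GADD45A 2, and each of these genes was lowest in the control. Genes of the list under 1 FPKM in the control, ANXA1 among them, could not be called lower on this scale.

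In siFOXA1, 9 of the 38 were 2-fold higher, among 3.52% of all genes. They were the NF-κB targets and regulators BIRC3 (2.28 FPKM in the control, 10.6 in siFOXA1, 1.83) and NFKBIA (17.2 to 39.2, 1.14), the anti-inflammatory lipid-binding protein ANXA1 (0.599 to 4.30, 1.73) and the amine oxidase MAOA (197 to 580, 1.55). The others were KLF4 (1.49), the EGFR inhibitor ERRFI1 (1.24), the stress-response gene GADD45A (1.09), the mRNA-decay factor ZFP36 (1.06) and the clock repressor CRY2 (1.01). FKBP5 was the single lower gene.

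In siFOXM1, 7 were 2-fold higher, where 2.59% of all genes were. BIRC3 was at 13.6 FPKM (2.15), and the metallothioneins MT1F (1.82), MT1X (1.55) and MT2A (1.18), which bind zinc and copper, were higher together. These near-identical genes can share reads, so the split between them is uncertain. DUSP1, a phosphatase that switches off MAP kinases, was at 16.9 FPKM against 5.01 (1.57), and KLF4 (1.44) and ZFP36 (1.08) were the remaining ones. In siEZH2 there were 4, MT1F (1.13), MT1X (1.04), CRY2 (1.01) and DUSP1 (1.25), where 0.894% of all genes were 2-fold higher.

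The remaining knockdowns held at most 1. DUSP1 was 2-fold higher in siBRCA2 (1.30, beside 0.767% of all genes), siEED (1.26, beside 0.817%), siSMARCA4 (1.07, beside 0.494%) and siKDM1A (1.07, beside 0.754%). GADD45A was 2-fold higher in siCTCF (1.17, beside 1.27%), BIRC3 in siRAD21 (1.01, beside 0.906%) and RGS2, a regulator of G protein signalling, in the library labelled siMALAT1 (1.03). The list had none in siBRCA1, where 0.45% of all genes were 2-fold higher, and none in siPCAT1, where 0.323% were. DUSP1, GADD45A and BIRC3 were lowest in the control of all 13 libraries, so for them, as for NR3C1 in the other direction, the single control lay at or near the end of the range.

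**Figure D5:**
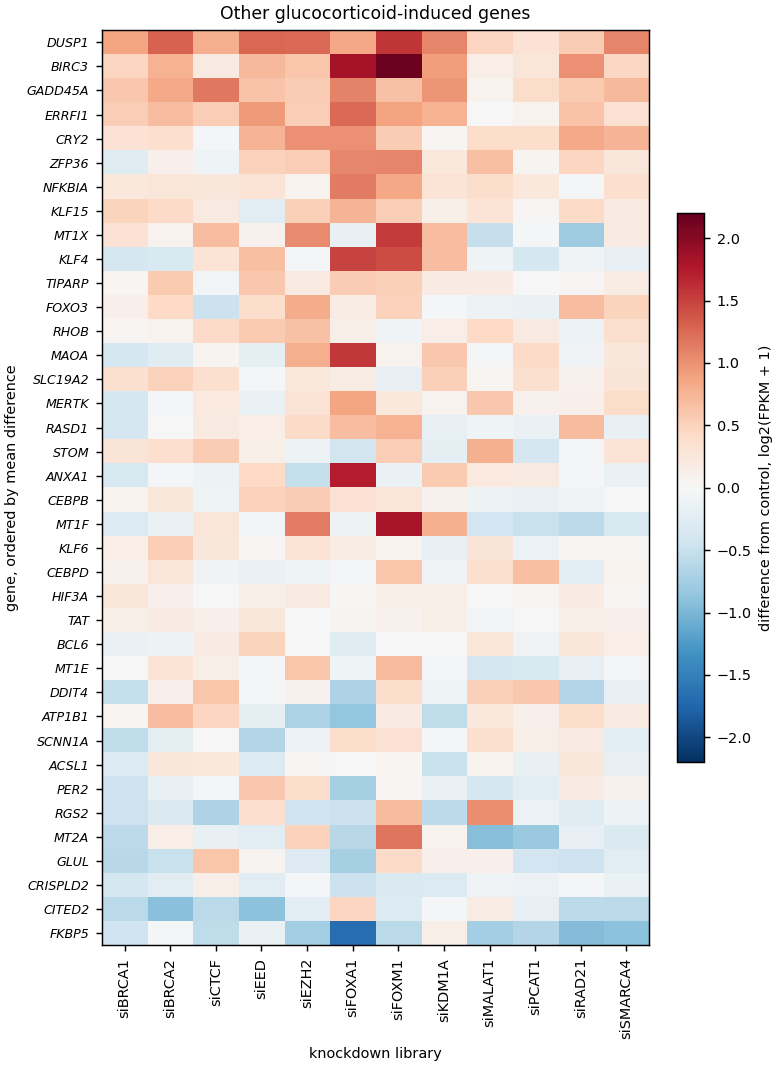
Difference from the control on the log2(FPKM + 1) scale (colour) for the 38 other glucocorticoid-induced genes kept (vertical axis, ordered by mean difference) in the 12 knockdown libraries (horizontal axis). DUSP1, BIRC3 and GADD45A lie above the control in every library, siFOXA1 and siFOXM1 hold the most dark red cells, and FKBP5 in siFOXA1 is the one dark blue cell.

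Of 21 symbols of inflammatory genes that the receptor is known to restrain, 10 were listed in the files and 6 kept. These 6 held 9 differences that were 2-fold higher and none that was 2-fold lower. That is 12.5% and 0% of 72, beside 1.098% and 2.04% over all genes. CCL20, IL8 and IL1B, which gave all 9, were under 1 FPKM in the control, too low for a 2-fold lower call on this scale. CCL20 and IL8 passed the filter only through knockdowns in which they were high, so the count and its direction describe these genes and carry no weight for the list. CCL20, a chemokine, was at 0.0559 FPKM in the control, 7.84 in siFOXM1 (3.07), 3.20 in siFOXA1 (1.99), 1.48 in siCTCF (1.23), 1.26 in siKDM1A (1.099) and 1.12 in siEED (1.01). IL8, the neutrophil chemokine CXCL8, was at 0.0731 FPKM in the control, 3.34 in siFOXM1 (2.02), 1.88 in siFOXA1 (1.42) and 1.84 in siRAD21 (1.40). IL1B was at 0.787 FPKM in the control and 5.13 in siFOXA1 (1.78). All of these libraries had NR3C1 below the control, but so had siBRCA1, siBRCA2, siEZH2, siPCAT1 and siSMARCA4, where none of the 6 reached 2-fold. The part of the receptor in these differences was not tested.

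In the gene families of the induced members, the shares of 2-fold differences lay on both sides of the 1.098% higher and 2.04% lower over all genes. The clock genes gave 0.794% in each direction of 252 differences, the TSC22 family 4.17% higher and 2.08% lower of 48, the genes around the SGK kinases 0.521% higher and 2.60% lower of 192, the KLF family 1.52% higher of 132, and the BTB zinc finger genes none of 132. Each share rests on 6 calls or fewer, and each list includes its member. TSC22D3 gave 1 of the 2 higher calls and the 1 lower call of its family. SGK1 gave the only higher call of its list. These shares thus in part restate members chosen with their values in view, and they only describe the lists. Of 21 clock genes kept, PER3 (10.95 FPKM in the control, 3.48 in siFOXA1, -1.42) and the repressor BHLHE40 (21.5 to 7.996, -1.32) were 2-fold lower in siFOXA1, opposite to PER1 there. CRY2 was 2-fold higher in siFOXA1 and siEZH2, as given above. PER2 ran from 3.13 FPKM in siFOXA1 to 9.39 in siEED with no 2-fold difference. Of the 4 TSC22 family genes, TSC22D1, a TGF-β-responsive relative, was 2-fold higher in siFOXA1 (29.9 to 85.4 FPKM, 1.48), where TSC22D3 was 2-fold lower. TSC22D2 and TSC22D4 had no 2-fold difference.

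Of 16 genes around the SGK kinases, SCNN1B, a subunit of the epithelial sodium channel that SGK1 protects from degradation, was 2-fold lower in siBRCA1 (-1.30), siRAD21 (-1.21), siCTCF (-1.18) and siEZH2 (-1.09), from 4.04 FPKM in the control. Its partner subunit SCNN1G was 2-fold lower in siRAD21 (1.24 to 0.0944 FPKM, -1.03). SGK1 in siFOXA1 was the only higher one. SGK3, a kinase of the same family, ran from 8.30 to 13.9 FPKM. Of 11 KLF genes kept, KLF4 in siFOXA1 and siFOXM1 was the only one to reach 2-fold, and of 11 BTB zinc finger genes kept, ZBTB16 included, none did.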

How the data were processed

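RNA sequencing was done on TruSeq libraries run on an Illumina HiSeq instrument, per the labels' protocols. Per the submitters' processing notes, the tools were TopHat, an aligner, and Cufflinks, which estimates expression, on hg19; the sources used here give no versions, annotation or use of strand. What the authors deposited was, for each library, a log2 value of FPKM per gene entry. Their floor was log2 of 0.1, so they were read as log2(FPKM + 0.1); no label states this offset. Sorted values of the 13 libraries differed by at most 0.0562, so the deposited values shared nearly 1 distribution. At the floor were 1528 to 1821 entries of each library.

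The offset was subtracted and values were expressed as log2(FPKM + 1), a scale that understates changes of low genes. Genes with a mean of at least 0.5 FPKM were kept, and 757 small RNA entries were left out. A gene was called 2-fold at a difference of 1. No p-value is given. The members and gene lists were chosen with earlier results of these data known, and the forkhead motif was added after values were seen. The genes named are the 6 members, list members at least 2-fold from the control, receptors, chaperones and steroid enzymes described across libraries, and the genes of highest Pearson's r (5 for NR3C1, 3 for each other member). PER2, TSC22D2, TSC22D4, SGK3, the siRNA targets and KLK3 were named besides. Alternatives were a pseudocount of 0.1, no filter, quantile normalization, median centring, another reference, Spearman's rho, and leaving out libraries. Leaving out the library labelled siMALAT1, and the 10 libraries lowest in NR3C1 taken alone, and siPCAT1 or the library labelled siMALAT1 as reference for NR3C1, were chosen after seeing the data. Proteins were not compared, and some genes of the lists are not reported here. The code for the calls was run on simulated data with an assumed noise. Changes were planted only in genes with a higher mean level than NR3C1, PER1, SGK1 and ZBTB16. The run checks the code and cannot show how reliable the calls are for those genes or without replicates. Python 3.11.15, pandas 2.3.3 and numpy 2.4.6 were used. Promoter windows came from RefSeq (GRCh38.p14); 5 of the 6 members matched.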

Additional observations from a re-analysis of the deposited data

How the results depend on the processing

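Against the median of the other 11 knockdowns, member differences 2-fold lower numbered 2 in place of 10, and NR3C1 turned to 0.39 in siBRCA1, 0.0895 in siRAD21 and 0.0689 in siSMARCA4; the wider induced list held 13 higher and 2 lower differences in place of 27 and 1. That reference is built mostly from libraries low in NR3C1, so the loss of the NR3C1 calls follows from its construction. With siPCAT1 or the library labelled siMALAT1 as the reference, 8 and 10 of 10 knockdowns were 2-fold lower in NR3C1. Both were taken as references after their high NR3C1 had been seen, so these counts follow from that choice and do not offset the loss. A pseudocount of 0.1 gave 8 member differences 2-fold higher in place of 2, 12 lower in place of 10, and 37 higher and 4 lower in the wider list. A smaller pseudocount widens the differences of low genes in general. The shares over all genes were not computed under these alternative settings, so the rise is not a result about these genes. Without the library labelled siMALAT1, 1 member difference was 2-fold higher, since 1 of the 2 came from that library. Quantile normalization, median centring and no filter left 9, 11 and 10 lower member differences and 2 higher; the deposited values already shared nearly 1 distribution, so the first 2 could move little. No member was set apart by 1 log2 unit under any setting run for it. The median difference of all genes was at most 0.0535. With 1 library per group, the spread between replicates and the depth, and so the smallest difference that could be detected, are unknown.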

Other observations

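Androgen-induced genes, many of which the glucocorticoid receptor can also drive, lay on both sides of the control. Of 12 kept, they held 13 differences 2-fold higher and 4 lower over the 12 knockdowns, 9.03% and 2.78% of 144, beside 1.098% and 2.04% over all genes. The higher ones came from TMPRSS2 (4), KLK4 (4), SLC45A3 (3) and ALDH1A3 (2). The lower ones were KLK4 in siRAD21, STEAP2 in siFOXM1, and SLC45A3 and FKBP5 in siFOXA1, FKBP5 being the call given above. TMPRSS2, a membrane protease of prostate epithelium, was highest in siFOXM1, at 52.8 FPKM against 19.4 in the control. This list too was chosen with earlier results of these data known, so its shares are a description. Of the estrogen and estrogen-related receptor genes, only ESRRA was kept, at 27.5 to 44.2 FPKM, with no 2-fold difference. Of the leukocyte markers, PTPRC was at 3.14 FPKM in siRAD21 and 0.946 in the control, and its part in the differences of that library was not tested.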
